A study of Homo sapiens with 6 samples.

Results

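The renin-angiotensin genes AGT, ACE, AGTR1, ATP6AP2 and ENPEP were followed in Huh7 cells, a line established from a human liver carcinoma, after silencing of SETD5, which encodes a SET-domain chromatin protein. The 5 genes were taken by symbol from the deposited expression table of 14200 genes, and 4 of them had values there. All 4 passed a filter on low values, which asked for an average of 1 CPM or more over the 6 libraries (CPM, the reads of a gene scaled to a common library size). ACE was not analysed here. The symbols were chosen with the difference between knockdown and control already known, AGT being among the most lowered genes of the series. Their values in the 2 groups are therefore given as a description, without a test.

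The series compared 3 control libraries of Huh7 cells with 3 libraries of Huh7 cells after SETD5 knockdown, both made from poly(A)-selected RNA. The labels describe siRNA transfection with the RNAiMAX reagent for all samples; they name SETD5 as the target and give neither the siRNA sequences nor what the control cells received. Whether replicate libraries stem from independent cultures is also not stated, so p-values reflect the scatter among the 6 libraries alone and that scatter may be technical. The test used below, limma, shares that scatter in part across genes. All 6 libraries derive from 1 cell line, which limits the comparison to that line.

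Angiotensinogen, the product of AGT, is a secreted serpin made mainly by the liver, and it is the only known precursor of the angiotensin peptides. Angiotensin I is cut from it, and angiotensin-converting enzyme (ACE) trims that peptide to angiotensin II, which raises blood pressure through the type 1 receptor encoded by AGTR1. ATP6AP2, the (pro)renin receptor, is also an accessory protein of the vacuolar proton pump. ENPEP encodes aminopeptidase A, which removes the first residue of angiotensin II. Further peptidases turn the peptides into shorter forms.

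Recovered reads ran from 14038447 to 17095417 per library. SETD5 was at 212, 209.6 and 202 CPM in the control libraries and at 136, 140 and 138 CPM in the knockdown libraries. The target was thus lower in every knockdown library, and 66.4% of its control level remained. All 8 hepatocyte markers examined were present, with a summed level of 39730 to 40565 CPM in the controls and 37343 to 37894 CPM after knockdown. AFP held most of that sum, and the members went both ways: TTR fell to 0.619, APOB to 0.682 and TF to 0.784 times the control, while FGB rose to 1.18 and ALB to 1.07 times. For the kidney and adrenal, 1 of 8 markers had values, SLC34A1, below 1 CPM in every library. The 2 endothelial markers with values summed to at most 1.35 CPM in any library. Immune markers, 3 of 4 with values, summed to 10.5 to 12.3 CPM in the controls and 11 to 11.7 CPM after knockdown. Within that sum CD14 fell from 3.62 to 1.76 CPM, or 0.485 times the control, and CD68 and PTPRC were at 1.16 and 1.41 times. Stellate and fibroblast markers, 4 of 6 with values (DCN and ACTA2 were not analysed here), summed to 169 to 178 CPM in the controls and 313 to 323 CPM after knockdown, of which COL1A2 made up most. In that list COL1A2 rose to 2.09, COL3A1 to 1.97 and LUM to 1.20 times the control, and PDGFRB fell to 0.722 times. The part of these marker shifts in the results below was not tested.

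The 3′ untranslated regions (UTRs) of AGT and AGTR1 are described first, and their part in the differences below was not tested. Both hold the 6-base word GCACCT, which was searched for because an earlier scan of these same data had named it in genes that changed, so it is no independent support for anything here. The AGT message, in GENCODE 29 transcript AGT-201 with a 3′ UTR of 618 bases, holds it at 2 places, starting 221 and 527 bases after the stop codon. The AGTR1 message, in transcript AGTR1-209 with 888 bases of 3′ UTR, holds it once, 469 bases after the stop codon. ATP6AP2 (1093 bases) and ENPEP (3727 bases) hold none. The stretches of 30 bases around each place are shown 5′ to 3′ as in the message, with the word in capitals. They lie at chr1:230702903-230702932 and chr1:230702597-230702626 on the minus strand for AGT and at chr3:148742572-148742601 on the plus strand for AGTR1 (GRCh38).
AGT, first place: agcggcacaaatGCACCTcccagtttgctg
AGT, second place: tgaaagatgcaaGCACCTgaatttctgttt
AGTR1: tgtgctacacttGCACCTggtactgcacat

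Upstream of the word, the base differs between the first and second AGT places, and the AGTR1 place shares TGCACCT with the first. The word was found in 28.6% of the 11888 tested genes with a 3′ UTR in GENCODE 29, TGCACCT in 11.4% and AGCACCT in 11.5%. Where a gene has several coding transcripts, 1 was used for these shares. The word was in 5 of the 8 complete coding transcripts of AGTR1, in the single one of AGT and in none of the 16 of ATP6AP2.

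AGT gave the highest level of the 4 genes. The gene lies at chr1:230702523-230714297 on the minus strand (GRCh38, GENCODE 29), where 1 other annotated gene, AL512328.1, overlaps it on the same strand. The control libraries held 706, 643 and 729 CPM of its message, and the knockdown libraries 269.8, 241 and 262 CPM, each in the order of library numbers. Every knockdown library was below every control library, and the lowest control value was more than 2 times the highest knockdown value. The means were 692 ± 44.6 CPM in the control and 257 ± 15.0 CPM after knockdown (SD, n = 3 per group), so that 37.2% of the control level remained. The log2 difference was -1.42, and it lay between -1.59 and -1.25 in the 9 pairs of a knockdown and a control library. By size of the difference, AGT was number 11 from the most lowered of the 12865 tested genes. Of all tested genes, 1.33% were called with a change of at least 2-fold and 0.676% were so in the lower direction, and the position of AGT near the end of that order is what led to its choice. In bulk RNA, fewer cells that express a gene and less of its RNA per cell cannot be told apart.

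The promoters of AGT and ATP6AP2, the members with the largest differences, are shown because their base composition differs. RefSeq's window of 250 bases before to 50 bases after the start of AGT lies at chr1:230714073-230714372 on the minus strand (GRCh38.p14). TATAA, the letters of a TATA box, was searched for on the gene's own strand between 45 and 16 bases before the start, and it is in capitals where found. It starts 30 bases before the start of AGT and 27 before that of ENPEP (chr4:110475905-110476204, plus strand), and it was not found in that window for ATP6AP2 (chrX:40580720-40581019, plus strand). Of all 35116 promoter windows in the table, 4.09% hold it there. The AGT and ENPEP windows have 57.3% and 53.7% G and C with 11 and 12 CpG pairs. The ATP6AP2 window has 63.7% with 32 CpG pairs, and the medians over all windows are 58.7% and 14. A match of letters is a description and not a measured site.
AGT: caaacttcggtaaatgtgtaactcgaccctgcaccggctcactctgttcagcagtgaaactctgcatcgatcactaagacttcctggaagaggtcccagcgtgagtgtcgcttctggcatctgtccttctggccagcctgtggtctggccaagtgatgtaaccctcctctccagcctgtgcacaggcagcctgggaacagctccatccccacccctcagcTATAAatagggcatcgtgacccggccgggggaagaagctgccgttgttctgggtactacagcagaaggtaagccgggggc
ATP6AP2: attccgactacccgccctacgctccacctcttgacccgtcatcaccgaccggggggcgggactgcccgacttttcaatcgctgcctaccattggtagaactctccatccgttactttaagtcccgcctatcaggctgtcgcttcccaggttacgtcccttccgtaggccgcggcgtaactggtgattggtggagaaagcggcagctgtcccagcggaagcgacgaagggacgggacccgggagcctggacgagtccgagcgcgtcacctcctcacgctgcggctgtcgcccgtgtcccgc

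ATP6AP2, at chrX:40579372-40606848 on the plus strand with no overlapping gene, was at 161, 162 and 164 CPM in the control libraries and at 114, 109.9 and 111 CPM in the knockdown libraries. The 2 groups were far apart for the (pro)renin receptor, and within each group the libraries were close to each other. The means were 162 ± 1.69 and 112 ± 2.17 CPM (SD, n = 3 per group), a level of 68.9% of the control and a log2 difference of -0.53.

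AGTR1, the receptor for angiotensin II, lies at chr3:148697784-148743008 on the plus strand with no overlapping gene. It was at 37.3, 37.5 and 38.4 CPM in the control libraries and at 42.4, 38 and 46.9 CPM in the knockdown libraries. The groups overlapped, since knockdown library 2 lay below control library 3, and the knockdown libraries were spread more widely than the controls. The means were 37.7 ± 0.618 and 42.4 ± 4.45 CPM (SD, n = 3 per group), with a log2 difference of 0.16. That difference rests on single libraries: it was 0.09 without knockdown library 3 and 0.23 without knockdown library 2. Its mean was thus not lower after knockdown.

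ENPEP, the peptidase of angiotensin II, was the least abundant of the 4. The gene lies at chr4:110365733-110565285 on the plus strand, where 4 annotated genes overlap it, 1 of them on the same strand. Its message was at 6.15, 5.50 and 5.93 CPM in the control libraries and at 4.44, 4.48 and 4.25 CPM in the knockdown libraries, which are 71 to 105 reads. Every knockdown value was below every control value. The means were 5.86 ± 0.329 and 4.39 ± 0.125 CPM (SD, n = 3 per group), or 74.9% of the control. On the log2(CPM + 1) scale the difference was -0.35. That scale understates a change at so low a level, and with a pseudocount of 0.1 in place of 1 the difference was -0.41.

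**Figure D1:**
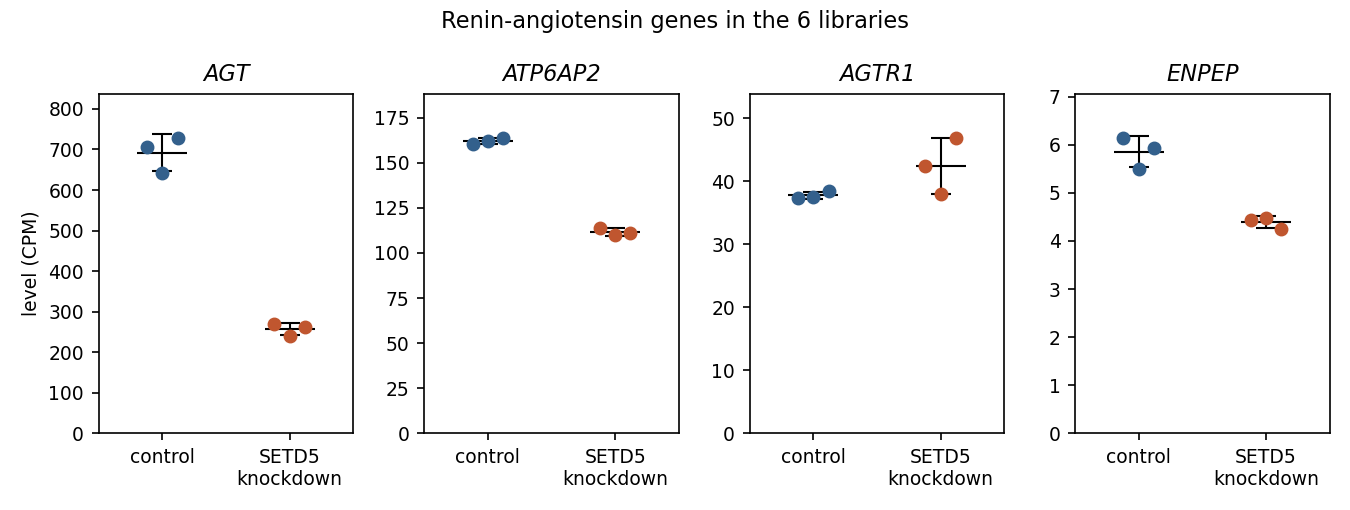
Level in CPM (y axis, from 0, a separate scale in each panel) of AGT, ATP6AP2, AGTR1 and ENPEP in the control and SETD5 knockdown groups. Points are the 3 libraries of a group in the order of their numbers, and the line and bars give the mean and SD. The groups do not overlap for AGT, ATP6AP2 and ENPEP, and they do for AGTR1.

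In 3 of the 4 genes the groups did not overlap, all with lower values after knockdown. Over all tested genes, groups without overlap were found in 57.3%, and in 28.8% with lower values after knockdown. The members were chosen from this contrast, so nothing is read from the count.

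Levels of different genes were compared per kilobase of transcript. In the control, AGT was at 302 ± 19.5 CPM per kilobase, ATP6AP2 at 69.4 ± 0.725, AGTR1 at 16 ± 0.262 and ENPEP at 0.844 ± 0.0473 (SD, n = 3). After knockdown the order was the same, with 112 ± 6.56 for AGT, 47.8 ± 0.927 for ATP6AP2, 18.0 ± 1.89 for AGTR1 and 0.632 ± 0.0179 for ENPEP. No neighbours in this order overlapped in either group. The distance between precursor and receptor became smaller: per kilobase, AGT was 18.9 ± 1.06 times AGTR1 in the control and 6.27 ± 0.459 times after knockdown. AGT was 4.36 ± 0.267 times ATP6AP2 in the control and 2.35 ± 0.0996 times after knockdown. These ratios use 1 GENCODE transcript per gene and move with the transcript chosen.

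The spread between libraries of a group was not used in choosing the genes. For AGT the coefficient of variation (CV) was 6.44% among controls and 5.84% among knockdown libraries, where counting alone gives 0.976% and 1.54%. Among 649 tested genes within a factor of 2 of its mean level, the median of the mean within-group CV was 2.01%, and 8 genes had a higher one than AGT (1.23%). AGT thus varied between like libraries by far more than its read number implies. ATP6AP2 had a mean within-group CV of 1.49% against a median of 2.66% for genes at its level, and ENPEP one of 4.22% against 9.82%. Counting alone gives 2.02% in the control and 2.34% after knockdown for ATP6AP2, and 10.6% and 11.8% for ENPEP. The observed CVs were below these, at 1.04% and 1.94% for ATP6AP2 and 5.61% and 2.84% for ENPEP. The small SDs of both genes thus understate the error of counting. AGTR1 stood at 1.64% in the controls and 10.5% after knockdown, where counting gives 4.18% and 3.80%.

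**Figure D2:**
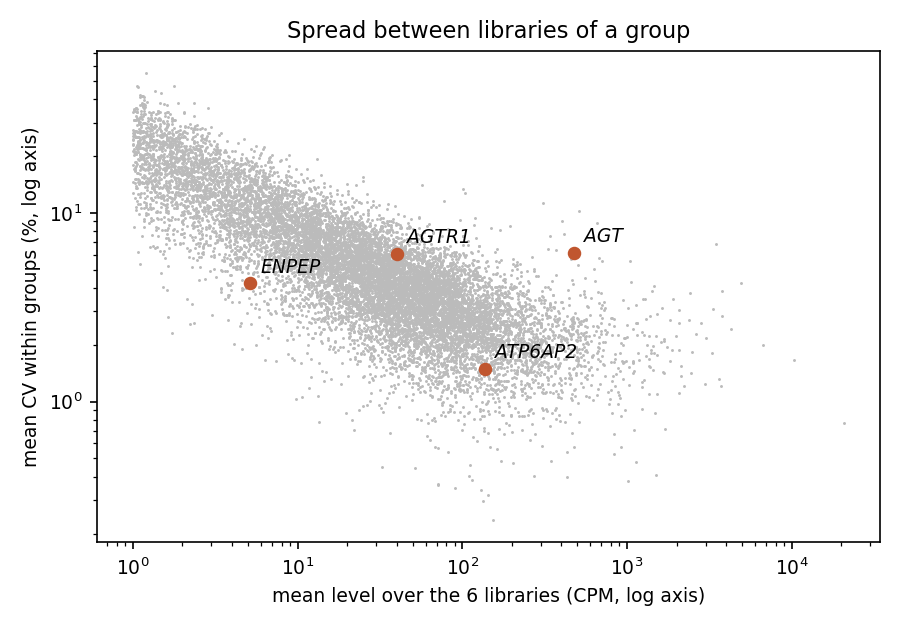
Mean CV within the 2 groups in percent (y axis, log scale) against the mean level over the 6 libraries in CPM (x axis, log scale). Each grey point is 1 of the 12865 tested genes, and the orange points are the 4 renin-angiotensin genes. AGT, at 6.14%, lies at the upper edge for its level, above ATP6AP2 and ENPEP, which lie low for theirs.

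The AGT library with the lowest value was number 2 in both groups. This was so for 13.1% of all tested genes, and for 8 of 18 tested serpins (44.4%), 6 of 16 genes of other vasoactive peptide systems (37.5%) and 2 of 10 other renin-angiotensin genes (20%). It was so for 12.5% of hepatocyte markers, 13.6% of AGT promoter factors, 15% of V-ATPase genes, 18.2% of M1 aminopeptidases and 20.8% of type 1 receptor partners. These counts were made after the AGT values had been seen.

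Other genes of the renin-angiotensin pathway were tested with limma across all genes, and 10 of 20 listed symbols had values. Of these 10, 5 fell and 3 rose after knockdown (adjusted p under 0.05), and without knockdown library 3 the falls were 3. The share called, 80%, stands beside 52.1% of all tested genes, where 3403 fell (26.5%) and 3303 rose (25.7%). Their median log2 change was -0.04, against -0.00121 over all genes. The other listed symbols were not analysed here.

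Among the peptidases that trim angiotensins, ANPEP, aminopeptidase N, which shortens angiotensin III, fell furthest. It was at 189, 177 and 194 CPM in the controls and at 116, 108 and 113 CPM after knockdown, with no overlap. The log2 change was -0.72 (95% confidence interval -0.80 to -0.65, limma adjusted p = 7.32e-19). LNPEP, a membrane aminopeptidase that binds angiotensin IV, fell from 14.0 ± 1.24 to 11.3 ± 1.04 CPM (SD, n = 3 per group). Its limma adjusted p was 0.0048, and 0.0502 without knockdown library 3, which ended the call. CTSA, the lysosomal carboxypeptidase cathepsin A, fell to 0.874 times the control. The proline-specific peptidases PRCP and PREP fell to 0.909 and 0.936 times, PREP only narrowly past the threshold (limma adjusted p = 0.0398).

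Other peptidases of the list went the other way. DPP3, a cytosolic peptidase that degrades angiotensins, rose from 280.4 ± 11.6 to 329 ± 5.18 CPM (SD, n = 3 per group). THOP1, a peptidase that acts on angiotensin I, rose to 1.08 times the control. Neurolysin, NLN, stood at 91.5 and 92.8 CPM, and the aspartic protease CTSD at 270.1 and 281 CPM, without passing the test. The CTSD difference passed without control library 3 (limma adjusted p = 0.0333). Compared with the listed genes, the direction in this pathway was mixed: the precursor, the (pro)renin receptor and 2 membrane aminopeptidases of the peptide chain, ENPEP and ANPEP, had lower values in every knockdown library, and DPP3 and THOP1 rose.

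**Figure D3:**
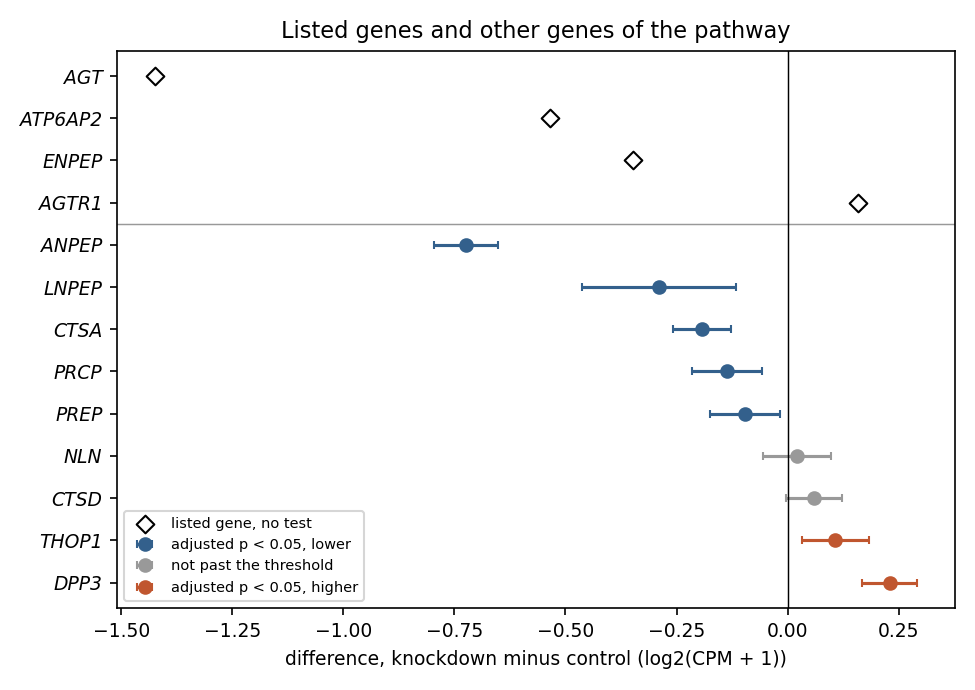
Difference between SETD5 knockdown and control on the log2(CPM + 1) scale (x axis) for the 4 listed genes (open diamonds, description without test) and 9 other pathway genes with values. Filled points show the limma estimate with its 95% confidence interval, blue for lower, orange for higher, grey for not past the threshold. ANPEP at -0.72 and DPP3 at 0.23 are the ends of the tested genes shown.

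ENPEP and ANPEP belong to the M1 family of zinc aminopeptidases. Of its 11 other members, all with values and including ANPEP and LNPEP from above, 4 fell and 4 rose, with a median of -0.11. That is 72.7% called, beside 52.1% over all genes (26.5% lower and 25.7% higher). ERAP1, which trims peptides for antigen presentation in the endoplasmic reticulum, fell from 79.5 ± 1.38 to 53.8 ± 1.05 CPM. TRHDE, which cleaves thyrotropin-releasing hormone, fell to 0.768 times the control. The leukotriene hydrolase LTA4H and the cytosolic aminopeptidase NPEPPS rose to 1.17 and 1.11 times.

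Of 24 tested partners and signalling proteins of the angiotensin II type 1 receptor, 6 rose, 5 fell and 13 did not pass, with a median of 0.02. That is 45.8% called, near the 52.1% over all genes, and without knockdown library 3 the falls were 3. HBEGF, an EGF-receptor ligand shed after receptor activation, rose from 6.76 ± 0.606 to 13.1 ± 1.6 CPM and EGFR from 155 ± 4.3 to 229 ± 3.3 CPM. The calcium channel ITPR1 fell from 12.1 ± 0.734 to 7.62 ± 0.817 CPM, and the kinase PRKCD fell to 0.83 times the control. The receptor-associated protein AGTRAP stood at 12 and 12.2 CPM, the G protein subunit GNAQ at 71.8 and 72.6 CPM and RHOA at 634 and 609 CPM, without passing. The receptor kinase ADRBK1 (GRK2) was at 325 and 316 CPM, also without passing.

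Of 22 tested transcription factors described at the AGT promoter, 7 rose, 5 fell and 10 did not pass, with a median of 0.01. That is 54.5% called, near the 52.1% over all genes. The glucocorticoid receptor NR3C1, through which glucocorticoids induce AGT, was at 47.5, 50.8 and 48.7 CPM in the controls and at 32.5, 30.8 and 30.1 CPM after knockdown. Its log2 change was -0.64 (limma adjusted p = 5.33e-13), the largest fall of this list. CEBPA fell from 354 ± 8.99 to 281 ± 4.7 CPM and STAT3 to 0.845 times the control. CEBPD, an acute-phase factor, rose from 6.88 ± 0.128 to 10.9 ± 0.772 CPM and GATA6 to 1.44 times the control. HNF4A, a main regulator of hepatocyte genes, stood at 350 ± 14 and 348 ± 3.65 CPM. CEBPB, RELA and NFKB1 did not pass either, with log2 changes of -0.05, 0.08 and 0.00.

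ATP6AP2 is an accessory protein of the vacuolar proton pump. Of 20 other tested subunits and assembly factors, 7 rose, 2 fell and 11 did not pass, with a median of 0.02. That is 45% called, near the 52.1% over all genes, and without knockdown library 1 the rises were 4. The catalytic subunit ATP6V1A fell from 142 ± 3.66 to 100.2 ± 3.77 CPM, a log2 change of -0.50 next to the -0.53 of ATP6AP2. The other fall was in ATP6V1C1, to 0.92 times the control. The membrane subunit ATP6V0E1 rose to 1.22 times and the assembly factor TMEM199 to 1.20 times. ATP6V0E2 rose to 1.18 times, a call that ended without knockdown library 1 (limma adjusted p = 0.0565). ATP6AP1, the other accessory protein, was at 100.1 and 95.5 CPM, and ATP6V1E1 and ATP6V1B2 were at 0.975 and 0.978 times the control, without passing.

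AGT is a serpin by structure. Of 18 tested members of the serpin superfamily other than AGT, 15 fell, 1 rose and 2 did not pass. The median log2 change was -0.34, and 88.9% were called, beside 52.1% over all genes. Heparin cofactor II, SERPIND1, was at 261, 256 and 268 CPM in the controls and at 121, 130 and 129 CPM after knockdown. Its log2 change was -1.04, smaller in size than the -1.42 of AGT. SERPINE2 fell to 0.712 times and SERPINA10 to 0.703 times the control. The abundant SERPINA1 fell from 4015 ± 111 to 3520 ± 103 CPM, and SERPINF2 from 724 ± 33 to 669.9 ± 19.8 CPM with overlapping groups. The single rise was in SERPINH1, a collagen chaperone that stays inside the cell, at 1.24 times the control. Hepatic proteins of this family were known to be mostly lower in these data when the list was written.

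Among other vasoactive peptide systems, 8 of 16 tested genes fell and 4 rose, with a median of -0.29. That is 75% called, beside 52.1% over all genes (26.5% lower and 25.7% higher), and without control library 2 the rises were 2. Of the contact and kinin genes, F12 fell from 114 ± 2.42 to 70.5 ± 3.77 CPM and the prekallikrein gene KLKB1 from 1.78 ± 0.122 to 0.795 ± 0.112 CPM. KNG1, the kinin precursor and in that sense the counterpart of AGT, rose to 1.17 times the control. The natriuretic peptide gene NPPB fell to 0.607 times. The propeptide-cleaving protease FURIN fell from 953 ± 43 to 669.8 ± 6.66 CPM. The endothelin-converting enzyme ECE1 fell to 0.801 times, and the endothelin receptor EDNRB rose from 3.4 ± 0.529 to 7.03 ± 1.06 CPM.

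**Figure D4:**
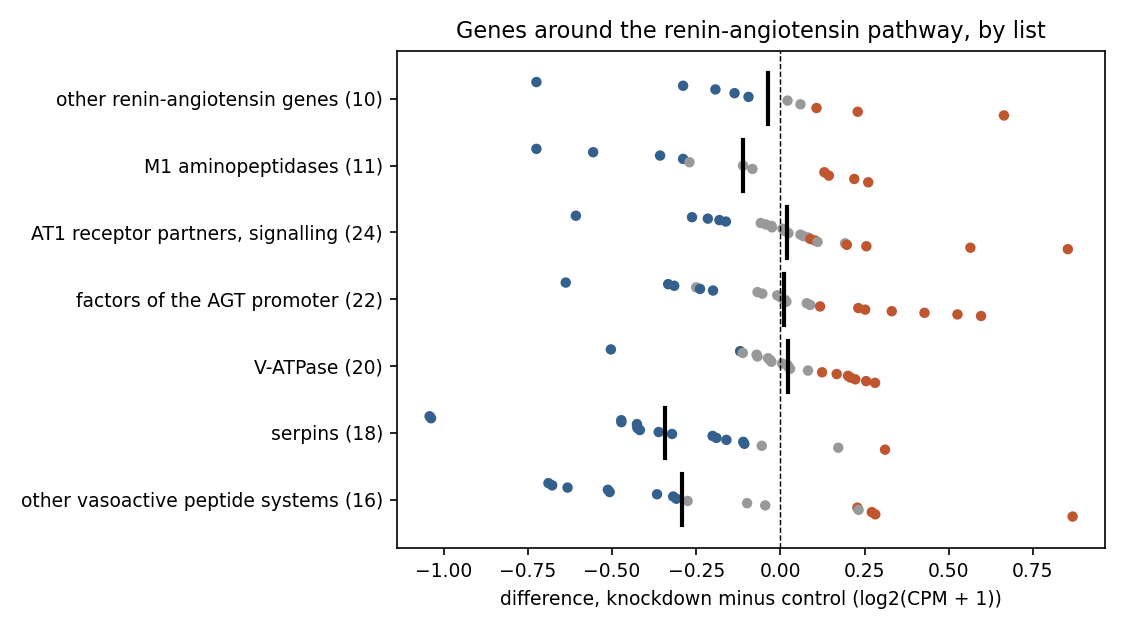
Difference between SETD5 knockdown and control on the log2(CPM + 1) scale (x axis) for the tested genes of 7 lists (y axis, number of genes in brackets). Each point is a gene, blue for lower and orange for higher at an adjusted p under 0.05, grey for not past the threshold; the thick line is the list's median and the dashed line that of all tested genes. Medians lie at -0.34 for serpins and -0.29 for vasoactive peptide systems, and near 0 for V-ATPase.

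The word GCACCT was set beside these lists. Of the 10 other renin-angiotensin genes, 4 hold it in the 3′ UTR, of which 2 fell and 1 rose, and of the 6 without it 3 fell and 2 rose. ANPEP and LNPEP, which fell, hold it at 2 places each, and THOP1, which rose, at 3. Among serpins, all 6 members with the word fell (median -0.45), and 9 of 12 without it fell (median -0.26). Of the type 1 receptor partners, 8 hold it, of which 2 fell and 2 rose. Of the 16 without it, 3 fell and 4 rose. Falls were in 3 of 4 M1 aminopeptidases with the word and 1 of 7 without it. They were in 2 of 5 and 3 of 17 AGT promoter factors, and in 1 of 4 and 1 of 16 V-ATPase genes. The 1 gene of other vasoactive peptide systems with the word rose, and 8 of 15 without it fell. Over the 11888 tested genes with a 3′ UTR, 34.6% of the 3400 with the word fell and 24.1% of the 8488 without it. Rises were 24.6% and 27.8%, and the median log2 changes were -0.037 and 0.014. Genes with the word had longer 3′ UTRs, with a median of 2455 bases against 778. The part of UTR length in this difference was not tested here, nor was a match to the siRNA.

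The genes with a profile most like that of AGT were found by Euclidean distance. It was taken between log2 values over the 6 libraries after each gene was centred on its control mean, among the 9451 other genes that averaged 10 CPM or more. The nearest was MMP15, a membrane-bound matrix metalloproteinase, at a distance of 0.12 log2 units. It went from 160.3 ± 7.36 to 59.2 ± 0.808 CPM. F13B, a subunit of clotting factor XIII, lay at a distance of 0.21, and the membrane protease TMPRSS6 and the lectin MBL2 at 0.22 each. NUS1, a subunit of the enzyme that makes dolichol, was the fifth, at 0.25. These genes were at 0.356 to 0.395 times the control, next to 0.372 for AGT, a likeness that follows from how they were picked. MMP15 holds GCACCT at 2 places in its 3′ UTR and NUS1 at 1, while F13B, TMPRSS6 and MBL2 hold none.

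**Figure D5:**
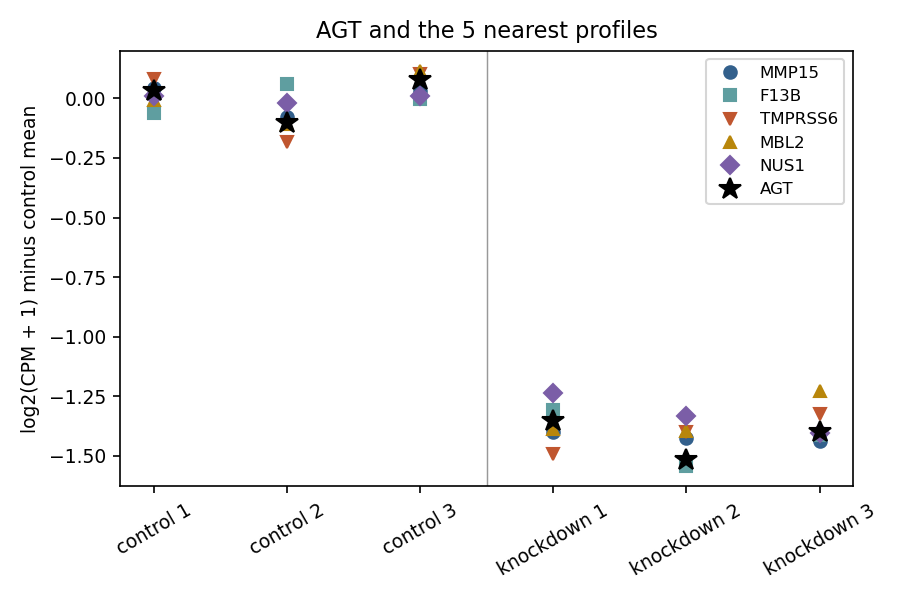
Log2(CPM + 1) minus the gene's own control mean (y axis) in each of the 6 libraries (x axis) for AGT (black stars) and the 5 genes with the nearest profiles. All 6 genes lie near 0 in the controls and between -1.2 and -1.6 after knockdown. The 5 genes were picked for this likeness.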

How the data were processed

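Gene expression was measured by RNA sequencing in 3 control and 3 SETD5 knockdown libraries of Huh7 cells, grouped by sample title. The authors deposited 1 table of log2 values for 14200 genes. In each library, 2 to the power of the value minus 1 fell on whole multiples of a fixed step for 100% of values, within 0.01 reads, so the log2 values as deposited are log2(CPM + 1) of whole reads. The submitters' processing notes name STAR 2.5.1, R 3.3.0, hg19 and mm10. The counting method, strand setting, scaling and gene filter are not given in the sources at hand. A floor of 3 reads is 0.176 to 0.214 CPM, which covers counting error only.

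The 12865 genes averaging 1 CPM or more were tested with limma 3.58.1 in R 4.3.3. Group was the only term, tests were two-sided, eBayes used its trend option, and p-values had Benjamini-Hochberg adjustment over all tested genes at 0.05. It was tested on simulated reads. GRK2 and AOPEP were matched through their older symbols ADRBK1 and C9orf3. The members and the gene lists were chosen with earlier results of these data known. Lists are described by counts and medians, with no test of a list. Named genes are the members, SETD5, up to 4 called members of each list with the largest change and 2 further ones with the highest level, and the 5 nearest profiles to AGT. Others are named where a count or role called for it, after their values were seen. UTRs come from GENCODE 29 (GRCh38) and promoters from RefSeq (GRCh38.p14), which held 3 of the 4 members with values, matched by symbol. No coordinates of the authors' build were used. Count tests planned with edgeR and DESeq2 were not run. Voom on recovered reads and total-count scaling were added after the data were seen. Results for some genes of the lists are not reported here.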

Additional observations from a re-analysis of the deposited data

How the results depend on the processing

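Of all tested genes, 6706 were called in the fit as reported, 5868 to 6898 over 14 alternatives, and 5981 to 6324 when 1 library was left out. The total called in a list moved by no more than 1.5 times under any of them. Counts by direction moved further: without 1 library as given above, and without the mean-variance trend, where falls among type 1 receptor partners went from 5 to 3 and among V-ATPase genes from 2 to 1. Falls among the other renin-angiotensin genes went from 5 to 4 without that trend, and also with median centring, total-count scaling and voom. The replicate numbers were checked for pairing: deviations of same-numbered libraries correlated at -0.011, 0.054 and 0.042 across genes, so they were not treated as pairs. With the replicate block the number called was 6898, and 8 of the 10 other renin-angiotensin genes were called, as without it. AGT, ATP6AP2 and ENPEP kept lower values and AGTR1 higher ones under the scalings, voom, the pseudocount, the block and each left-out library. The ENPEP log2 difference moved from -0.35 to -0.41 with a pseudocount of 0.1, and to -0.41 with voom on recovered reads. Of the 40 genes taken from the lists by the rule for largest change or highest level, 5 changed their call in some setting. None of the 40 that passed the test changed direction. Other genes named from the lists were not checked 1 by 1. The differences of HNF4A and ATP6V1B2, which did not pass, changed sign: HNF4A was at -0.01, at 0.0014 with median centring and at 0.02 without control library 1, ATP6V1B2 at -0.03 and at 0.0017 without control library 2. Among the changed calls, LNPEP, ATP6V0E2 and CTSD are given above. SERPINF2 did not pass without the mean-variance trend (adjusted p = 0.104). RHOA passed in 3 settings (adjusted p 0.0367 to 0.0488). Median centring shifted the share of calls that were higher from 49.3% to 52.1%. The tests planned with edgeR and DESeq2 were not run. Among the 4 members, ENPEP had the fewest reads, 71 to 105 per library; KLKB1, at 1.78 and 0.795 CPM, had fewer.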
